A study of Mus musculus with 11 samples.

Results

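The 10 transcription factors of naive pluripotency described here were followed in mouse embryonic stem cells (ESCs) and embryoid bodies (EBs) with and without Mettl3: Nanog, Esrrb, Klf2, Klf4, Klf5, Tfcp2l1, Tbx3, Prdm14, Zfp42 and Nr5a2. They were chosen by name, as the 10 of 39179 gene identifiers in the deposited table that carry these symbols. Poly(A) RNA of C57BL/6 cells was sequenced in 3 libraries of wild-type (WT) ESCs and 3 of Mettl3 knockout (KO) ESCs, called replicates A, B and C, and in 2 libraries each of WT and KO EBs, called A and B. ESCs were grown without serum in LIF and the inhibitors CHIR99021 and PD0325901 (2i). EBs were made from dissociated ESCs held in suspension in serum medium, for which no LIF or 2i is listed, for 8 to 21 days, and the labels give no day for a single library. The submitters call the replicates biological and tie ESC replicate C of both genotypes to a protein assay (SILAC). The labels do not say how culture or library preparation of C differed from that of A and B. The number of KO clones and the deleted part of Mettl3 are not given in the sources used here. A WT fibroblast library was not analysed here.

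Naive pluripotency is the state of the epiblast before implantation, and 2i with LIF holds ESCs in it. CHIR99021 inhibits GSK3 and so relieves repression by Tcf7l1, PD0325901 inhibits MEK, and LIF acts through Stat3. These inputs act on a network of mutually reinforcing factors that is switched off when cells leave the naive state. Mettl3 is the catalytic subunit of the enzyme that places N6-methyladenosine (m6A) on messenger RNA, a mark that can shorten the life of a transcript. Nanog is a homeobox factor. Esrrb and Nr5a2 are orphan nuclear receptors, Klf2, Klf4 and Klf5 are zinc finger factors of the Krüppel-like family, Tfcp2l1 is a grainyhead-related factor downstream of LIF, and Tbx3 is a T-box factor. Prdm14 restrains FGF signalling and DNA methylation in naive cells, and Zfp42 (Rex1) is a zinc finger protein widely used as a reporter of the naive state.

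Promoter sequence upstream of the RefSeq start was at hand for 7 of the 10 genes (GRCm38.p6), namely Nanog, Esrrb, Klf2, Klf4, Tfcp2l1, Zfp42 and Nr5a2. Each window covered 250 bases. The windows are shown for Nanog and Zfp42, because these factors were higher in ESC replicate C than in A and B in both genotypes, and for Esrrb, whose order between the genotypes turned over between those batches. Capitals mark motif matches on either strand, written 5′ to 3′ on the gene's own strand.
Nanog, chr6:122707239-122707488, plus strand: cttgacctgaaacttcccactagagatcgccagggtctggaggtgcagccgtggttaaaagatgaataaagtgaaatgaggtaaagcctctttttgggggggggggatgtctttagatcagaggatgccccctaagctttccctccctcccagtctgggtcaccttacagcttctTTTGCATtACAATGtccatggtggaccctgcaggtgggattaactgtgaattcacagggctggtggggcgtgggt
Zfp42, chr8:43307010-43307259, minus strand: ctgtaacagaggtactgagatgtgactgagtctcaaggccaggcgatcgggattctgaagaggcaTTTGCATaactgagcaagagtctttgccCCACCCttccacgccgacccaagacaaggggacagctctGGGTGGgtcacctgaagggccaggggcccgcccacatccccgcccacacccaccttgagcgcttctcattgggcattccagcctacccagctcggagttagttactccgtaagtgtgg
Esrrb, chr12:86360867-86361116, plus strand: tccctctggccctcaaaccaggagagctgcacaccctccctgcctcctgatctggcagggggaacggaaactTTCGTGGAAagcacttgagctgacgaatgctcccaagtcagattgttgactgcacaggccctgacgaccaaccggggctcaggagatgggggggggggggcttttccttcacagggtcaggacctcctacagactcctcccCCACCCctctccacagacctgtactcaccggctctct
The Nanog window held the octamer core TTTGCAT, which Pou5f1 (Oct4) binds, from -75 to -69 before the start, and the Sox core ACAATG from -67 to -62. The Zfp42 window held TTTGCAT from -185 to -179 and the CACCC box CCACCC, of the kind Krüppel-like factors bind, once on each strand. The Esrrb window held CCACCC and 1 STAT palindrome, TTCNNNGAA, from -178 to -170. Klf2 had 1 CCACCC on the minus strand. No letters of these motifs, of AAGGTCA (a site of orphan nuclear receptors) or of CTTTGAT (a TCF core) were found in the windows of Klf4, Tfcp2l1 and Nr5a2. Of 32851 RefSeq windows of the same length, 4.13% held TTTGCAT, 10.7% ACAATG, 28.1% CCACCC, 4.08% AAGGTCA, 7.02% TTCNNNGAA and 3.21% CTTTGAT on either strand. The motifs do not overlap in these windows, and a match is a run of letters, not a measured binding site.

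The m6A writer prefers the sequence GGACT, so its matches on the sense strand of 1 GENCODE M21 transcript per gene were counted. All 10 factors held at least 1 match, as did 92.5% of 13363 protein-coding genes tested. The median of the factors was 1.52 matches per kb, against 1.06 over all these genes, whose middle range ran from 0.644 to 1.53, and 7 of the 10 lay above that median. Nr5a2 was the densest at 2.32 per kb (11 matches), followed by Nanog at 1.81 (4) and Tfcp2l1 at 1.73 (16). Prdm14, at 0.39 per kb, and Klf2, at 0.541, held 1 match each. Shown, with GGACT in capitals, are the 2 matches in the 3′ UTR of Nanog, among the densest of the factors, and the single matches of Prdm14 and Klf2, the sparsest.
Nanog, 3′ UTR, chr6:122714033-122714057, plus strand: agcaaacctaGGACTtagaacatgc
Nanog, 3′ UTR, chr6:122714584-122714608, plus strand: gatgccagctGGACTagtttaaaca
Prdm14, 3′ UTR, chr1:13113833-13113857, minus strand: agtgctgctaGGACTtaactgctaa
Klf2, coding sequence, chr8:72319475-72319499, plus strand: acaacgtgttGGACTtcatcctctc
Methylation itself was not measured in these libraries.

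The replicate C libraries held 3026837 (WT) and 3075007 (KO) reads in genes, and the other 8 held 8523027 to 15426894. The factors were covered by 95 or more reads in the C libraries, by 220 or more elsewhere and by at most 16178, and all 10 passed the filter of a mean of 10 normalized counts. Values below are normalized counts, that is reads divided by the size factor of the library. Mettl3 was at 131 to 138 in KO ESCs against 392 to 425 in WT ESCs, and at 147 and 154 in KO EBs against 368 and 399 in WT EBs, so every KO library lay below every WT library. Tox4, a gene on the other strand, covers 18.4% of Mettl3 exon bases, and the kit does not keep the strand. Replicate C stood apart from A and B of its own group (r of log2 values across genes of 0.653 to 0.692, against 0.989 to 0.990 between A and B), so ESC results are given by batch as well. Summed over 8 ESC markers, which include Nanog and Zfp42, levels were 28780 to 34010 in ESC A and B libraries, 102900 and 47110 in C of WT and KO, 18070 to 19780 in WT EBs and 24470 to 28160 in KO EBs. In C of WT and KO, Dppa5a alone was at 43110 and 7741. Sox2 (3913 and 4080) and Fgf4 (2671 and 1989) were lower in C than in A and B of their genotype, and the other markers were higher. In bulk RNA, fewer cells of a type and less RNA per cell cannot be told apart.

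**Figure D1:**
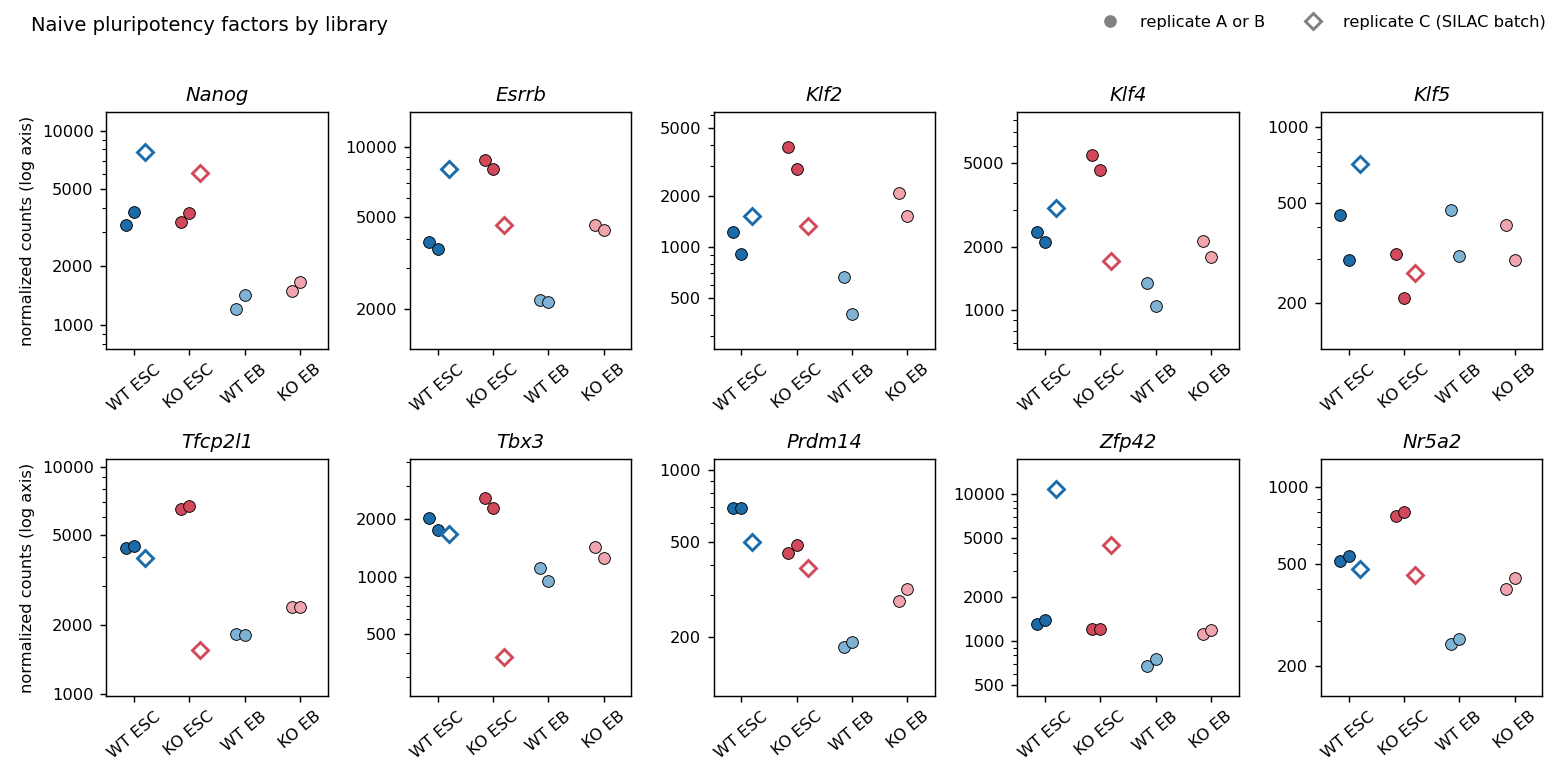
Normalized counts (log axis, own scale per gene) of the 10 factors in each of 10 libraries, 1 point per library; filled circles are replicates A and B, open diamonds ESC replicate C. KO libraries lie above WT in ESC A and B for 6 factors, while in ESC C the KO library lies below WT for all 10.

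Per kilobase of exon, Nanog was the most abundant factor in WT ESC replicates A and B, with a mean of 1586 normalized counts per kb. Klf4 (733) and Zfp42 (712) followed with overlapping ranges, then Esrrb (620) and Klf2 (576), whose ranges also overlapped, and Tfcp2l1 (472). Tbx3 (285) and Prdm14 (269) were not separated, and Nr5a2 (89.3) and Klf5 (71.9) were the lowest. In KO ESC A and B the ranges of Klf2 (1835), Klf4 (1648) and Nanog (1595) overlapped at the top, above Esrrb (1394), and Klf5 was again lowest (50.2). In replicate C the order differed, with Zfp42 at 5726 per kb ahead of Nanog at 3469 in WT, and Nanog at 2712 ahead of Zfp42 at 2380 in KO. WT EBs had Nanog on top (587 per kb) and Nr5a2 lowest (42.5), while KO EBs had Klf2 on top (976), with Esrrb (743), Nanog (703), Klf4 (645) and Zfp42 (612) below it, each overlapping the next.

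**Figure D2:**
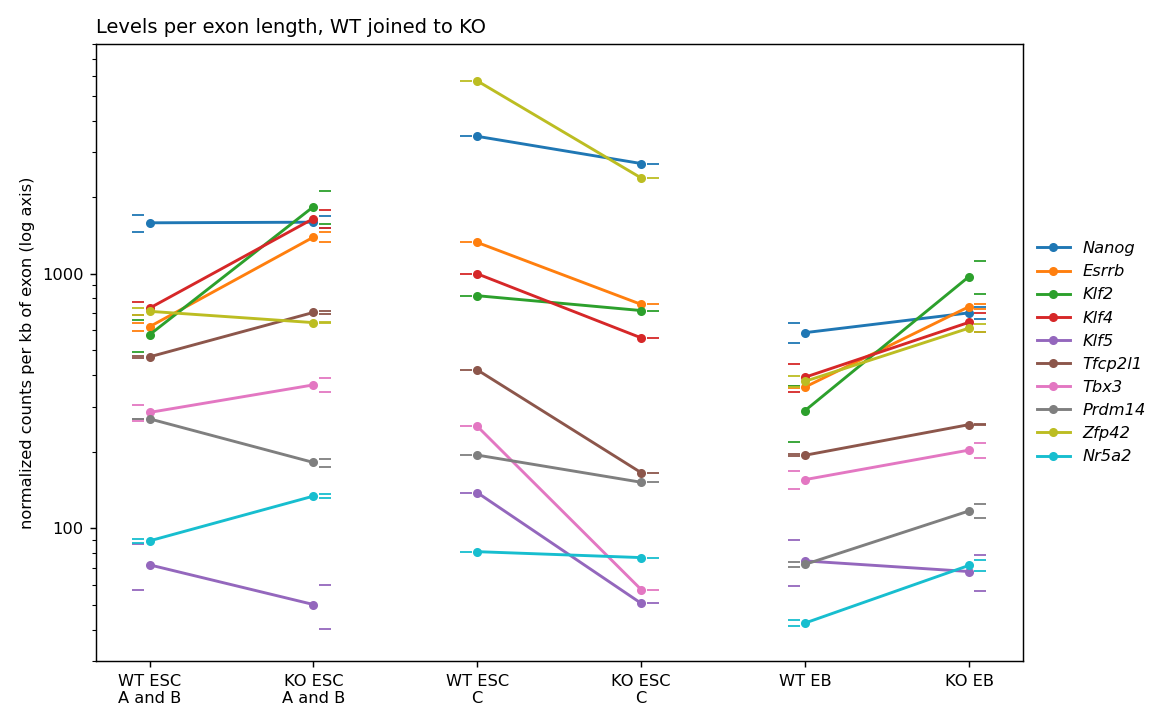
Levels per kilobase of exon (log axis), with WT joined to KO within ESC replicates A and B, ESC replicate C and EBs; points are means and dashes single libraries. Klf2 passes from 576 to 1835 per kb between WT and KO in ESC A and B, and Zfp42 stands at 5726 in WT ESC C.

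The first comparison asked what loss of Mettl3 does to the factors in ESCs. Over all 3 replicates, with a term for the SILAC batch, 1 of 10 factors passed the test, Prdm14, which was lower in KO. It had 690, 691 and 497 normalized counts in WT ESCs A, B and C and 448, 482 and 389 in KO. Every KO library lay below every WT library, and the log2 difference was -0.50 (SE 0.10, adjusted p = 0.0051, limma). No factor passed as higher with limma (2 at an unadjusted p under 0.05), while edgeR and DESeq2 called 2 higher each. Of 15781 genes tested, 18.1% passed as higher and 18.8% as lower, so 1 factor in 10 is no more than among genes at large. The median log2 difference of the factors was -0.09, against -0.02 over all genes. With reads scaled to the library total (CPM), which shifts the median of all genes to 0.09 in this comparison, the share of calls that were higher went from 49.0% to 64.1%, and in the next comparisons from 43.3% to 57.2% (KO against WT EBs), from 51.5% to 68.1% (EBs against ESCs in WT) and from 44.3% to 61.6% (in KO). Klf5 (-0.82, SE 0.29, adjusted p = 0.0537) passed with the replicate letter as a block (adjusted p = 0.04). Without a batch term no factor passed (Prdm14 adjusted p = 0.208).

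The 3 pairs of ESC libraries did not go one way. Taken apart by batch, a step added after the values were seen, 6 factors were higher and 1 lower in KO in replicates A and B, and none was higher and 6 were lower in replicate C. In C no factor was higher at an unadjusted p under 0.05 or with edgeR, which called 5 lower. Over all genes, 27.3% passed as higher and 27.8% as lower in A and B, and 22.5% and 23.3% in C. The 2 C libraries have no replicate of their own, and their test assumes that they vary like the other groups. Both KO libraries lay above both WT libraries in A and B for 6 of 10 factors (38.4% of all genes). In replicate C the KO library lay below the WT library for 10 of 10 (49.1% of all genes). Both held together, KO above WT in A and B and below it in C, for 6 of 10 factors: Esrrb, Klf2, Klf4, Tfcp2l1, Tbx3 and Nr5a2 (13.3% of all genes). The difference between batches was itself tested, as the KO effect in C minus that in A and B. It was negative and past the threshold for 7 factors and positive for none, where 19.1% and 18.8% of all genes passed. With edgeR the counts were 7 and 0, and no factor was positive at an unadjusted p under 0.05. The median of that difference was -1.49 over the factors and -0.01 over all genes.

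Of the Krüppel-like factors, Klf2 had 1220, 908 and 1515 normalized counts in WT ESCs A, B and C and 3892, 2888 and 1325 in KO. KO stood 3.19 times as high as WT in A and B, a log2 difference of 1.67 (SE 0.26, adjusted p = 0.000818), while in C the difference was -0.19 (SE 0.37, adjusted p = 0.742). Klf4, one of the reprogramming factors, had 2361, 2108 and 3050 in WT and 5434, 4617 and 1708 in KO. Its KO libraries were thus the highest of the 6 in A and B and the lowest in C, with log2 differences of 1.17 (SE 0.14, adjusted p = 0.000192) and -0.84 (SE 0.20, adjusted p = 0.00892). Klf5, which also serves the trophectoderm, had 450, 298 and 718 in WT and 312, 210 and 264 in KO. Letter by letter, KO thus lay below WT each time. The ranges of A and B overlapped between the genotypes (-0.51, SE 0.28, adjusted p = 0.156), and in C the difference was -1.44 (SE 0.40, adjusted p = 0.0182). The batch difference of Klf5 did not pass (-0.93, adjusted p = 0.174), whereas those of Klf2 (-1.86, adjusted p = 0.0125) and Klf4 (-2.00, adjusted p = 0.000443) did.

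Of the nuclear receptors, Esrrb, a direct target of the GSK3 and Tcf7l1 axis, had 3875, 3618 and 8027 normalized counts in WT ESCs A, B and C and 8803, 8050 and 4585 in KO. WT C lay close to the KO A and B libraries, and KO C lay between these and WT A and B. The KO effect was 1.17 (SE 0.07, adjusted p = 5.98e-06) in A and B and -0.81 (SE 0.10, adjusted p = 0.000336) in C. Nr5a2, which can stand in for Pou5f1 in reprogramming, had 516, 537 and 478 in WT and 774, 805 and 453 in KO. It rose by 0.58 in A and B (SE 0.08, adjusted p = 0.000537), and the C libraries differed by -0.08 (SE 0.12, adjusted p = 0.667).

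Tfcp2l1 and Tbx3, both linked to LIF signalling, were the factors least abundant in KO replicate C relative to their level elsewhere. Tfcp2l1 had 4409, 4496 and 3956 normalized counts in WT ESCs A, B and C and 6553, 6758 and 1561 in KO. The WT libraries lay close together, with KO above them in A and B (0.58, SE 0.06, adjusted p = 7.23e-05) and below in C (-1.34, SE 0.08, adjusted p = 1.36e-05). Tbx3 had 2027, 1754 and 1667 in WT and 2573, 2278 and 381 in KO. The KO C library held 0.157 times the mean of KO A and B, while WT C held 0.882 times its own. The KO effect on Tbx3 was 0.36 in A and B (SE 0.11, adjusted p = 0.0263) and -2.13 in C (SE 0.16, adjusted p = 3.87e-05), and the difference of -2.49 between batches was the widest of the 10. Of the Tbx3 exons 1.74% overlap the antisense gene Tbx3os1.

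Nanog and Zfp42 were higher in C than in A and B in both genotypes, and did not differ detectably by genotype in A and B. Nanog had 3279, 3834 and 7777 normalized counts in WT ESCs A, B and C and 3386, 3768 and 6080 in KO. The genotypes overlapped in A and B (0.01, SE 0.11, adjusted p = 0.943), and in C the difference was -0.36 (SE 0.16, adjusted p = 0.104). Zfp42 had 1300, 1380 and 10770 in WT and 1213, 1206 and 4477 in KO. C stood 8.04 times above A and B in WT and 3.70 times in KO, and these 2 C libraries were the highest of all 10 for Zfp42. The KO effect on Zfp42 was -0.15 (SE 0.08, adjusted p = 0.137) in A and B and -1.27 (SE 0.11, adjusted p = 6.27e-05) in C. Pou5f1 was likewise at 3.20 and 2.03 times its A and B mean in C of WT and KO, and its partner Sox2 at 0.449 and 0.393 times. Of the Pou5f1 exons 14.1% overlap the antisense gene Gm19553. Prdm14 alone passed as lower in A and B (-0.57, SE 0.09, adjusted p = 0.000911), with -0.35 in C (SE 0.13, adjusted p = 0.052), and its effect did not differ detectably between batches (0.22, 95% interval -0.15 to 0.58).

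**Figure D3:**
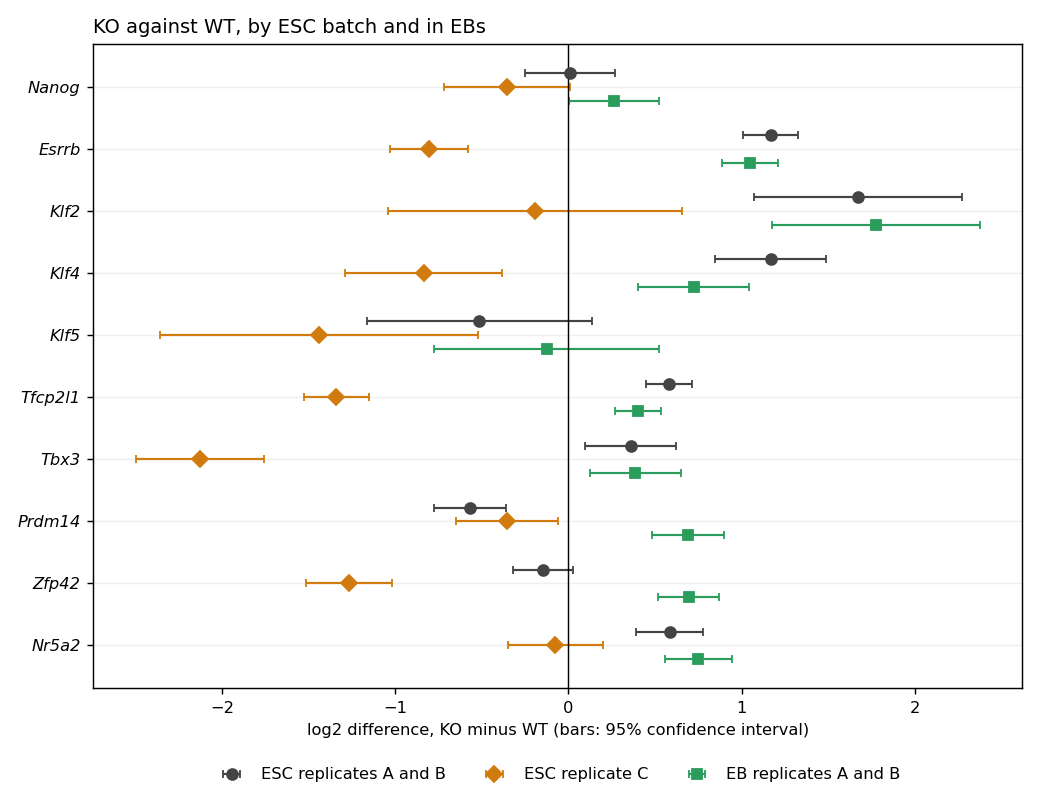
Log2 difference of KO minus WT for each factor in ESC replicates A and B, ESC replicate C and EBs, with 95% confidence intervals from a limma fit with the ESC batches apart. Tbx3 stands at 0.36 in ESC A and B, -2.13 in ESC C and 0.39 in EBs, and Prdm14 is below 0 in both ESC batches and above it in EBs.

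Markers of other cells moved with these batches. The summed level of 10 fibroblast and mesenchyme markers was 6637 to 6769 normalized counts in WT ESC A and B, 11170 to 11460 in KO ESC A and B, and 237 and 192 in C of WT and KO. The collagen genes Col1a1, Col1a2 and Col3a1 made up most of the A and B sums. Col3a1 alone was at 3115 and 3171 in WT and 6222 and 6532 in KO. Postn (234 and 300 in WT, 141 and 191 in KO) and Thy1 (57.2 and 55.7, 29.4 and 30.9) were lower in KO A and B. In C all 10 were under 100, and 4 and 2 of them were at 0. In A and B 6 of the 10 were under 100 in WT ESCs and 5 in KO ESCs. A single read in C stood for 3.29 and 2.78 normalized counts in WT and KO. Thy1 was higher in C, at 92.2 and 97.2, than in A and B of its genotype. In EBs the sum was 3305 to 3344 in WT and 2265 to 2324 in KO. Trophectoderm markers went the other way from the factors in C, with a sum of 1217 to 1338 in WT ESC A and B and 1608 to 1696 in KO, and of 557 and 2305 in C of WT and KO. Most of the A and B sums came from a single marker, Tfap2c, at 1047 and 949 in WT and 1014 and 901 in KO. In C 6 of the 7 tested rose in KO and none fell. Spry4, a feedback inhibitor of FGF signalling that ERK induces, was at 1.82 or less in the ESC A and B libraries and at 2447 and 1897 in C of WT and KO. The part of these genes in the KO effects on the factors was not tested.

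The second comparison asked what loss of Mettl3 does in EBs. There 9 of 10 factors had both KO libraries above both WT libraries, Klf5 being the exception, where 36.0% of all genes did. In the fit over all libraries 3 factors passed as higher (Klf2, Prdm14 and Nr5a2) and none as lower, against 12.7% and 16.7% of all genes. At an unadjusted p under 0.05 these counts were 5 and 0, with edgeR 4 and 0, and with DESeq2 5 and 0. The median log2 difference of the factors was 0.69, against -0.02 over all genes. Klf2 was at 402 and 670 in WT EBs and 1533 and 2071 in KO EBs. Its KO libraries stood 3.36 times as high, a log2 difference of 1.78 (SE 0.47, adjusted p = 0.0235). With the replicate block, Klf2 no longer passed (adjusted p = 0.0581), nor without WT replicate B, KO replicate A or KO replicate B (adjusted p = 0.148, 0.133 and 0.0713). Prdm14 was at 181 and 189 in WT and 282 and 318 in KO, an order opposite to that in ESCs. The log2 difference of 0.69 (SE 0.12, adjusted p = 0.00382) passed without any 1 of the 10 libraries. Nr5a2 was at 244 and 257 in WT and 400 and 444 in KO (0.75, SE 0.17, adjusted p = 0.0127). Leaving out any 1 of the 4 EB libraries ended the call for Nr5a2, with adjusted p between 0.0511 and 0.0868.

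The other 6 of these 9 factors were higher in both KO EB libraries without passing in that fit. Esrrb was at 2151 and 2194 normalized counts in WT EBs and 4399 and 4586 in KO, 2.07 times as high (1.05, SE 0.41, adjusted p = 0.0922). Zfp42 was at 674 and 749 in WT and 1112 and 1190 in KO (0.69, SE 0.25, adjusted p = 0.0671). Klf4 was at 1047 and 1347 in WT and 1798 and 2134 in KO (0.72, SE 0.43, adjusted p = 0.251). The fit shares 1 spread over all groups, and without the 2 C libraries the SE of these 3 differences was 0.07, 0.08 and 0.14. Tfcp2l1 was at 1814 and 1843 in WT and 2402 and 2421 in KO (0.40, SE 0.40, adjusted p = 0.496). Tbx3 was at 950 and 1109 in WT and 1257 and 1432 in KO (0.39, SE 0.52, adjusted p = 0.622). Nanog was at 1201 and 1432 in WT and 1494 and 1656 in KO (0.26, SE 0.15, adjusted p = 0.218). Klf5 was at 307 and 467 in WT and 296 and 408 in KO, with overlapping ranges (-0.13, 95% interval -0.93 to 0.68). Without the 2 C libraries the same log2 differences had smaller SE, and 8 factors passed as higher, all but Nanog (adjusted p = 0.0858) and Klf5 (adjusted p = 0.744). Without a batch term none passed (Prdm14 adjusted p = 0.2).

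Primitive endoderm markers moved with genotype in EBs. Their sum over 10 genes was 44260 to 44540 normalized counts in WT EBs and 366 to 387 in KO EBs, where 8 of 10 were under 100 and 1 was at 0. Lama1 alone made up most of the WT sum, at 37700 and 38510, and stood at 176 and 186 in KO EBs. All 10 markers passed as lower in KO EBs, where 16.7% of all genes did. Trophectoderm markers summed to 8144 to 8494 in WT EBs and 1087 to 1172 in KO EBs. Most of the WT sum came from the keratin genes Krt8 (3989 and 4132) and Krt18 (3268 and 3575). Of 7 trophectoderm markers tested, 3 passed as lower in KO EBs and 1, Ascl2, as higher, where 16.7% and 12.7% of all genes did. The part of both marker sets in the levels of the factors was not tested.

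The third comparison followed the factors from ESCs to EBs. In WT, 9 of 10 had both ESC A and B libraries above both EB libraries (37.6% of all genes), and likewise 9 of 10 in KO (39.9%), Klf5 being the exception in each. In the fit over all libraries 5 factors fell in WT EBs (Nanog, Tfcp2l1, Prdm14, Zfp42 and Nr5a2) and none rose, where 12.2% and 13.0% of all genes did. In KO 3 fell (Nanog, Prdm14 and Nr5a2) and none rose, where 14.0% and 11.1% did. At an unadjusted p under 0.05, 9 factors in WT and 5 in KO were lower and none was higher, and edgeR called 6 and 4 lower and DESeq2 9 and 5, with none higher. The median log2 difference of the factors was -1.27 in WT and -0.64 in KO, against -0.04 and -0.05 over all genes. Without the C libraries the medians of the factors were close, at -0.966 in WT and -0.905 in KO. The wider gap between the genotypes in the fit over all libraries thus depended on the C libraries. WT EBs still held between 26.8% (Prdm14) and 58.0% (Esrrb) of the mean of WT ESC A and B for the 9 factors, and 103.6% for Klf5.

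Shares here and in the next paragraph are set against ESC A and B. Unless stated otherwise, the log2 differences come from the fit over all libraries, C included, and need not match the shares. By share, Prdm14 kept the least of its level in WT EBs. From 690 and 691 normalized counts in ESC A and B it went to 181 and 189 in EBs, a log2 difference of -1.86 (SE 0.11, adjusted p = 3.97e-05). In KO it went from 448 and 482 to 282 and 318, that is to 64.5% (-0.67, SE 0.11, adjusted p = 0.00414). Nanog fell to 37.0% in WT (-1.49, SE 0.14, adjusted p = 0.00028) and to 44.0% in KO (-1.12, SE 0.14, adjusted p = 0.00118). Nr5a2 fell to 47.6% in WT (-1.18, SE 0.16, adjusted p = 0.00156) and to 53.4% in KO (-0.79, SE 0.16, adjusted p = 0.00946). With the replicate block the fall of Nr5a2 in KO did not pass (adjusted p = 0.0932), nor did it without KO EB replicate A (adjusted p = 0.0806).

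Tfcp2l1 stood at 41.1% in WT and 36.2% in KO. The fit over all libraries gave -1.60 in WT (SE 0.38, adjusted p = 0.018), which did not pass with the replicate block (adjusted p = 0.168). In KO that fit gave -1.14 (SE 0.38, adjusted p = 0.061). Without the 2 C libraries the differences were -1.28 in WT and -1.46 in KO, so which genotype fell more turned over. Zfp42 fell to 53.1% in WT (-1.10, SE 0.24, adjusted p = 0.0115). That call too was lost with the block (adjusted p = 0.114), and both were lost without either WT EB library (adjusted p from 0.0548 to 0.0946). In KO, Zfp42 stayed at 95.1% of its A and B level, with 1213 and 1206 in ESCs and 1112 and 1190 in EBs. Its log2 difference was 0.11 over all libraries (95% interval -0.43 to 0.66) and -0.07 without the 2 C libraries. Esrrb was at 58.0% and 53.3% in WT and KO EBs, Klf2 at 50.4% and 53.2%, Klf4 at 53.6% and 39.1% and Tbx3 at 54.5% and 55.4%, and none of these passed. Without the 2 C libraries 9 factors passed as lower in WT, all but Klf5, and 8 in KO, all but Klf5 and Zfp42. Without a batch term only Prdm14 in WT passed (-1.74, adjusted p = 0.00791), although the difference for Zfp42 was larger (-1.92, adjusted p = 0.434).

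The share left in EBs depends on the ESC library it is set against. Against replicate C, Zfp42 in WT EBs was at 6.61% and Nanog at 16.9%, both below Prdm14 at 37.2%. In KO EBs Zfp42 and Nanog were at 25.7% and 25.9%. Tbx3, at 55.4% of KO ESC A and B, was at 353% of KO ESC C. Tfcp2l1 was at 154.5% of KO ESC C.

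**Figure D4:**
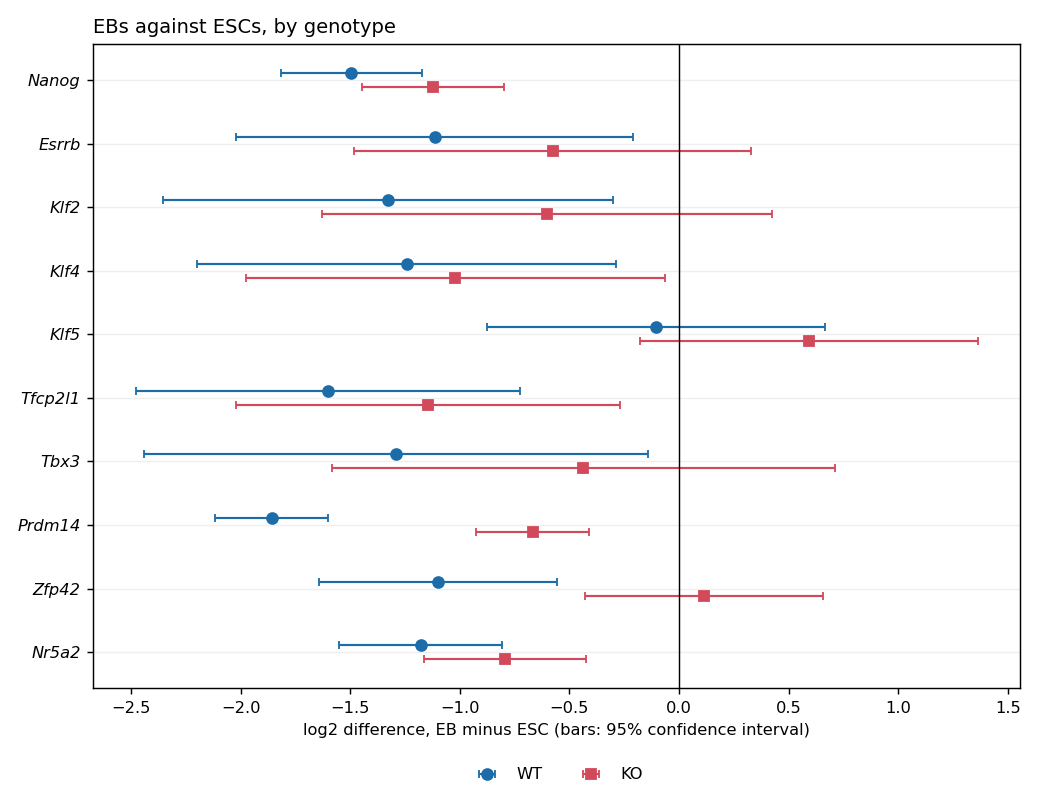
Log2 difference of EBs minus ESCs for each factor in WT (circles) and KO (squares), with 95% confidence intervals from the limma fit over all 10 libraries. Prdm14 stands at -1.86 in WT and -0.67 in KO, and the intervals of Esrrb, Klf2, Klf4 and Tbx3 are the widest.

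Whether the KO effect differed between EBs and ESCs was tested directly, as the effect in EBs minus that in ESCs. Prdm14 (1.19, SE 0.15, adjusted p = 0.00223) and Zfp42 (1.21, SE 0.32, adjusted p = 0.0391) passed as positive and no factor as negative, where 5.57% and 8.89% of all genes did. With edgeR and DESeq2 the counts were also 2 and 0, and no factor was negative at an unadjusted p under 0.05. For Prdm14 the KO effect was negative in ESCs and positive in EBs, and the call held with the block (adjusted p = 0.0165) and without any 1 library. For Zfp42 it was lost with the block (adjusted p = 0.124) and without any 1 of 7 libraries (WT ESC B, KO ESC A, KO ESC B and each EB library), with adjusted p from 0.052 to 0.144. Without the 2 C libraries the difference for Zfp42 was 0.84 (adjusted p = 0.000635) and for Prdm14 1.26 (adjusted p = 0.000163). The median over the factors was 0.62 with all libraries and 0.14 without the C libraries, against -0.01 over all genes in both.

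Profiles over the 10 libraries were compared by the root mean square difference of log2 values, each gene centred on its own mean. Among the factors, Esrrb and Klf4 were the closest pair (0.28), and Tfcp2l1 (0.34) and Nr5a2 (0.30) were nearest to Klf4 too. Klf5 was the farthest from any other factor (0.82 to Prdm14). Of 13414 other named genes, 4 lay nearer to Esrrb than Klf4 did, with Pdgfa nearest (0.26), and 2 lay nearer to Klf4 than Esrrb did, with Oas1c nearest (0.27). For the other 8 factors 17 (Klf2) to 7455 (Klf5) genes lay nearer than the nearest factor, with 558 for Zfp42 and 717 for Nanog. Without the C libraries the counts were 47 for Esrrb and 22 for Klf4, and the nearest factor became Nanog for Tfcp2l1 and Tbx3 for Nr5a2. For the rest, the nearest other gene was Vegfc for Klf2 (0.30), Nfib for Tfcp2l1 (0.20), Helb for Tbx3 (0.26), Yes1 for Nr5a2 (0.13), Msmo1 for Prdm14 (0.23), Msrb2 for Nanog (0.20), Pcolce2 for Zfp42 (0.25) and Nudt4 for Klf5 (0.21). Without the C libraries none of these 10 nearest genes stayed the nearest. The libraries share batch and depth, so these distances are descriptions.

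Other genes of the naive state went with the factors in part. Of 12 naive markers that are not among these factors, 9 fell and none rose in WT EBs against ESCs (12.2% and 13.0% of all genes), led by Alpl, the alkaline phosphatase of ESCs (-1.90, SE 0.21, adjusted p = 0.000616). Against WT ESC C the order of Alpl was the opposite, with 642 normalized counts there and 758 and 703 in WT EBs, and so was that of Fbxo15, with 777 against 1044 and 1287. In KO against WT EBs 6 rose, led by Alpl (1.35, SE 0.22, adjusted p = 0.00347), and 1 fell, Fbxo15 (-0.69, SE 0.14, adjusted p = 0.0082). In KO against WT ESCs 2 rose, led by the growth factor gene Gdf3 (0.73, SE 0.09, adjusted p = 0.000883), and 3 fell, led by Dppa5a (-1.80, SE 0.18, adjusted p = 0.000412). Taken by batch, 5 rose and 4 fell in ESC A and B and 2 rose and 6 fell in C. For this list and those below, the shares of all genes that rose and fell were 18.1% and 18.8% in KO ESCs, 27.3% and 27.8% in A and B, 22.5% and 23.3% in C, and 12.7% and 16.7% in KO EBs, and several of the list counts lie near them. Tet2, a DNA demethylase, rose by 1.28 in A and B (SE 0.08, adjusted p = 7.73e-06), and its batch difference was -3.56 (SE 0.14, adjusted p = 2.53e-06).

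Of 12 general pluripotency genes 4 fell and none rose in KO ESCs, led by the RNA-binding protein gene Lin28a (-3.07, SE 0.62, adjusted p = 0.00642). By batch, 1 rose and 8 fell in A and B, and none rose and 3 fell in C. Lin28a had 307, 303 and 3847 normalized counts in WT ESCs A, B and C and 16.9, 12.7 and 2508 in KO. Its log2 difference was -4.29 in A and B (adjusted p = 4.13e-07) and -0.62 in C (adjusted p = 0.0179), and these differed by 3.67 (adjusted p = 1.64e-05). Pou5f1 and Sox2, which mark naive and later pluripotent cells alike, differed by -0.20 (SE 0.14, adjusted p = 0.296) and 0.19 (SE 0.16, adjusted p = 0.404) in KO against WT ESCs. These values come from the fit over all libraries. By batch, Pou5f1 was at 9280 and 8416 in WT and 9512 and 8389 in KO ESCs A and B. In C it was at 28270 in WT and 18170 in KO. The KO effect in C minus that in A and B was -0.65 for Pou5f1 and -0.19 for Sox2. In KO EBs 4 rose, led by Sox2 (0.85, SE 0.20, adjusted p = 0.0151), and 1 fell, the Nodal coreceptor gene Tdgf1 (-0.41, SE 0.10, adjusted p = 0.02). Among 7 genes of the LIF and Stat3 input, 1 rose and 2 fell in KO ESCs (1 and 3 in A and B, 1 and 3 in C) and 2 rose and 3 fell in KO EBs. Socs3, the feedback inhibitor of that input, fell by 0.61 in ESCs (SE 0.12, adjusted p = 0.00643) and by 1.14 in EBs (SE 0.15, adjusted p = 0.00133).

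On the side of the 2i targets, 7 of 10 genes of the MEK and ERK arm fell and none rose in KO ESCs, led by Dusp6, an ERK phosphatase that ERK induces (-1.10, SE 0.22, adjusted p = 0.0068), and 3 fell in KO EBs. By batch, 1 rose and 6 fell in A and B, and 1 rose and 4 fell in C. In A and B Dusp6 was low, at 53.7 and 52.7 normalized counts in WT and 20.7 and 16.4 in KO (-1.48). In C it was at 629 in WT and 500 in KO (-0.33). It thus reached the mean of 100 needed for naming only through C and the EBs. Of 8 Wnt arm genes tested, 1 fell in KO ESCs (1 rose and 2 fell in A and B, none rose and 3 fell in C), and in KO EBs 1 rose, Cdx1 (3.76, SE 0.49, adjusted p = 0.0012), and 3 fell, led by Tcf7 (-1.10, SE 0.21, adjusted p = 0.00717). Of 9 tested genes of the primed epiblast, 2 rose and 3 fell in KO EBs, led by Zic2 (2.08, SE 0.25, adjusted p = 0.000844) and Cldn6 (-3.22, SE 0.22, adjusted p = 7.32e-05). Of 9 partner repressors and exit factors, 2 rose in KO EBs and none fell, led by Jarid2 (1.11, SE 0.10, adjusted p = 0.000213), and in KO ESCs 1 rose and 1 fell (5 and 2 in A and B, 1 and 5 in C). The naive factors and these lists were measured in the same libraries and share the C batch.

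The genes lie at these places in GRCm38: Nanog (ENSMUSG00000012396) at chr6:122707489-122714633, Esrrb (ENSMUSG00000021255) at chr12:86361117-86521628, Klf2 (ENSMUSG00000055148) at chr8:72319033-72321656, Klf5 (ENSMUSG00000005148) at chr14:99298691-99315036, Tfcp2l1 (ENSMUSG00000026380) at chr1:118627945-118685168 and Tbx3 (ENSMUSG00000018604) at chr5:119670669-119684724, all on the plus strand. On the minus strand lie Klf4 (ENSMUSG00000003032) at chr4:55527143-55532466, Prdm14 (ENSMUSG00000042414) at chr1:13113457-13127163, Zfp42 (ENSMUSG00000051176) at chr8:43295063-43306980 and Nr5a2 (ENSMUSG00000026398) at chr1:136842571-136960448. Stretches near-identical to other transcripts (95% or more over 100 bases or more) leave part of 2 counts uncertain. Nanog shares 245 bases, 11.1% of its transcript, with the pseudogene Nanog-ps1, and Zfp42 shares 266 bases, 14.5%, with Zfp42-ps1. Nanog also shares a shorter stretch with transcripts of other genes, 57 genes in all. Tfcp2l1 shares 130 bases with the small RNA gene Gm23497, and no such stretch was found for Esrrb, Klf2, Klf4, Klf5, Prdm14 and Nr5a2.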

How the data were processed

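The deposited table holds normalized signal, which the authors made by dividing the read counts per gene by a DESeq size factor per library. The tools listed in the submitters' processing notes are HTSeq 0.6.0, TopHat2 2.0.10, Bowtie, DESeq and CASAVA 1.8.2, with the build mm10. The annotation release, strand setting and filters are not given in the sources used here. Dividing by the value of 1 read gave whole reads for 100% of values (tolerance 0.01). Of 39179 identifiers 37607 had a symbol in GENCODE M21 (GRCm38), and 5 summary lines were left out. Alignments that were not unique, 28.7% to 46.1% of records, are in none of the gene counts. The 95% intervals are for a log2 difference and use 1 spread between libraries, shared over all groups of the fit.

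The test was limma 3.58.1 (trended, robust) in R 4.3.3 on log2(normalized count + 1), for 15781 genes with a mean of 10 or more, with 4 group means and 1 term for the SILAC batch (5 residual degrees of freedom). Tests were two-sided, with Benjamini-Hochberg adjustment over all genes tested and a threshold of 0.05. With the ESC batches apart the fit had 4 residual degrees of freedom. Alternatives used edgeR 4.0.16 and DESeq2 1.42.0 on the recovered reads, other scalings and filters, a replicate block and libraries left out. Of these fits, only the main limma fit was tried on simulated data, and only for KO against WT EBs. The simulated C libraries had the same shift in both genotypes, so a KO effect that differs between ESC batches was not covered. Near-identical stretches were searched with blastn 2.17.0.

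WT and KO ESC libraries that share a letter deviated together from their group means (r across genes of 0.845, 0.828 and 0.858), and the labels tie letter C to one assay, so the ESC letters pair the libraries. Unlike letters gave r = 0.809 and 0.812 for A with B, close to those of like letters, and -0.846 to -0.836 where 1 of them was C. What separates the letters is thus mainly C. The EB letters had r = 0.369 with 2 pairs. Named genes were the 10 factors, Mettl3, Pou5f1 and Sox2, the nearest profiles, and per list, comparison and direction the called gene with the largest difference among those with a group mean of 100 or more. That mean could be reached in any ESC or EB group, with ESC replicate C included. Of these list genes, those in the comparisons described are given. The members and lists were chosen with earlier results of these data known.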

Additional observations from a re-analysis of the deposited data

Results flagged for a closer look

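The KO effect on 7 factors differed between ESC replicate C and replicates A and B. As the effect in C minus that in A and B on the log2 scale, the difference was -1.98 for Esrrb, -1.86 for Klf2, -2.00 for Klf4, -1.92 for Tfcp2l1, -2.49 for Tbx3, -1.12 for Zfp42 and -0.66 for Nr5a2. Each passed in limma over all genes, and with edgeR all 7 passed as well. With CPM scaling 6 passed. The split by batch was made after the values were seen, and C has 1 library per genotype. Batch, depth, assay and any difference of culture cannot be told apart there.

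The KO effect on 2 factors differed between EBs and ESCs, by 1.19 for Prdm14 and 1.21 for Zfp42 (effect in EBs minus effect in ESCs, log2). For Zfp42 the call was lost with the replicate block (adjusted p = 0.124) and without any 1 of 7 libraries (adjusted p = 0.052 to 0.144).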

How the results depend on the processing

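The number of factors called depended most on the C libraries and the batch term. Without a batch term 376, 290, 392, 127 and 75 genes were called in KO against WT ESCs, KO against WT EBs, EBs against ESCs (WT, then KO) and the difference of KO effects, in place of 5825, 4638, 3979, 3955 and 2282, with 0, 0, 1, 0 and 0 factors in place of 1, 3, 5, 3 and 2. At an unadjusted p under 0.05, limma then had 3, 4, 5, 3 and 1 factors. Without both C libraries 7, 8, 9 and 8 factors were called in the first 4, and all genes called came to 8196 in KO against WT EBs, 7278 and 7465 in EBs against ESCs, and 5703 in the difference. With the replicate block 2 factors were called in KO against WT ESCs, 3 in EBs against ESCs in WT and 1 in the difference, and all genes called fell to 1503 (EBs against ESCs in WT), 1314 (in KO) and 1230 (difference). No other call of a factor changed with the block than those given beside the results. With edgeR 3 factors were called in KO against WT ESCs. With DESeq2 5 were called there, 5 in KO against WT EBs, 9 and 5 in EBs against ESCs in WT and KO, and 3440 genes in the difference. With CPM scaling 3 factors were called in KO against WT ESCs and 5 in KO against WT EBs, and a pseudocount of 10 gave 2 in ESCs. With the ESC batches apart, 7 factors were called within A and B and 6 within C. For the difference between ESC batches edgeR called 2682 genes in place of 5968.

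Some directions turned over. In KO against WT ESCs the log2 difference of Nanog (-0.11) was 0.011 without both C libraries or within A and B and 0.021 with CPM scaling. That of Tfcp2l1 (-0.06) was 0.58 without both C libraries or within A and B, 0.019 with edgeR and 0.073 with CPM scaling, and that of Tbx3 (-0.47) was 0.36 without both C libraries or within A and B. Within C, Esrrb (0.51) was at -0.81, Klf2 (1.05) at -0.19, Klf4 (0.50) at -0.84 and Nr5a2 (0.36) at -0.077. In EBs against ESCs, Klf5 in WT (-0.10) was at 0.05 without both C libraries and 0.039 with CPM scaling, Tbx3 in KO (-0.44) at 0.038 without a batch term, and Zfp42 in KO (0.11) at -0.70 without a batch term and -0.073 without both C libraries. In the difference of KO effects, without both C libraries, Esrrb (0.54) was at -0.12, Klf4 (0.22) at -0.45 and Tfcp2l1 (0.46) at -0.18. Beyond the libraries left out, the cause was not tested.

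Leaving out 1 library at a time gave 1 to 7 factors called in KO against WT ESCs, 1 to 8 in KO against WT EBs, 3 to 9 and 2 to 8 in EBs against ESCs in WT and KO, and 1 to 2 in the difference. All genes called ranged from 2149 to 8211 in KO against WT EBs, 1745 to 7274 and 1594 to 7467 in EBs against ESCs in WT and KO, and 917 to 5707 in the difference. The highest factor counts in the first 4 came without either C library. In KO against WT ESCs, Nanog ranged from -0.21 to 0.011, Tfcp2l1 from -0.26 to 0.58 and Tbx3 from -0.77 to 0.36. Klf5 ranged from -0.43 to 0.18 in KO against WT EBs and from -0.43 to 0.20 in EBs against ESCs in WT, and Zfp42 from -0.073 to 0.25 in EBs against ESCs in KO. In the difference, Esrrb ranged from -0.12 to 0.76, Klf4 from -0.45 to 0.48 and Tfcp2l1 from -0.18 to 0.66. Depth limits the C libraries most, where a factor had as few as 95 reads. Group levels with CPM scaling were not run as an alternative, being in another unit.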
